A study of Caenorhabditis elegans with 2 samples.

Results

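The 10 genes described here carry out sex determination and dosage compensation in Caenorhabditis elegans. They are the sex switch gene xol-1, the male-promoting gene her-1, the sdc genes sdc-1, sdc-2 and sdc-3, and the dosage compensation genes dpy-21, dpy-26, dpy-27, dpy-28 and mix-1. They were listed by name, and a region was counted for a gene when its summit lay in the gene or up to 6 kb upstream of its start. By that rule, 6 of the 10 genes had a region in the pooled list, against 59.8% of all protein-coding genes. Together the 6 genes had 41 of the 29970 nuclear regions of that list. The pooled list and the 2 replicate lists hold candidate regions, which by the authors' name for them include background. All 10 genes were found among 19973 protein-coding genes of the nuclear chromosomes, xol-1, sdc-1 and sdc-2 on the X and the other 7 on autosomes.

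EOR-1, a transcription factor with zinc fingers that works in the Ras and Wnt pathways, was mapped by chromatin immunoprecipitation and sequencing. There was 1 group of 2 biological replicates, whole L3 larvae of strain OP81, labelled as mixed sex. Both carried unc-119(ed3) III and the transgene wgIs81, which supplies EOR-1 with an eGFP tag, so the values concern the tagged protein. The labels name the target as eor-1 and give no protocol for extraction or precipitation, and with no second condition there was no comparison of animals. Each value averages over all tissues and over all the animals, and the share of males among them is not known. The regions therefore cannot be assigned to a tissue or a sex.

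In C. elegans the number of X chromosomes relative to autosomes sets sex through xol-1, which X-encoded repressors keep low in animals with a pair of X chromosomes. Active xol-1 gives the male fate. Where it is low, the SDC proteins silence her-1 and bring the dosage compensation complex, a condensin-like complex, to both X chromosomes, where it lowers transcription. The complex first loads at recruitment sites on the X that share a short sequence motif, and its demethylase subunit DPY-21 acts on methylated histone H4.

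The strongest region at any of these genes lay far upstream of xol-1. The optimal list, which the authors kept by the irreproducible discovery rate, equalled the first 256 nuclear regions of the pooled list by signal. The region upstream of xol-1 was a peak of that list, at chrX:8036355-8036501 in build ce11. Its summit at position 8036443 was 4870 bp upstream of the start of xol-1. The sequence of the whole 147 bp peak is given below from the RefSeq genome of the same build, plus strand, because it holds a word seen at few other regions. Capitals mark the 2 copies of GCGCAGGG, a word at the centre of the motif known from recruitment sites, which stand on opposite strands. The first copy reads as its reverse complement on the strand shown.
xol-1 distal peak: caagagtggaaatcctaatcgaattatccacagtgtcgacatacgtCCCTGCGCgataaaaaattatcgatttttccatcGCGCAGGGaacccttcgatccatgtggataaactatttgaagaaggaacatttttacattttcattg

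The copies lay at chrX:8036401-8036408 on the minus strand and at chrX:8036435-8036442 on the plus strand, with 26 bases between them. Their centres were 39 bp and 5 bp from the summit. With each copy read on its own strand, the longest stretch that the 2 copies share is ATCGCGCAGGGA, of 12 bases. The GC content of the peak was 39.5%, against 35.2% over the X chromosome.

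The distal xol-1 peak was among the strongest nuclear regions in every list. It had a signal of 243 in the pooled list, where it ranked 6 among nuclear regions. In replicate 1 the signal was 127 at rank 6, and in replicate 2 it was 115 at rank 7. The summits of replicates 1 and 2, at positions 8036435 and 8036449, lay 8 bp and 6 bp from the pooled summit, on opposite sides of it. The rank in the optimal list was also 6. The signal is the authors' own value per region, with no stated scale, and read depth is unknown, so replicate and pooled signals are set side by side without a mean or interval.

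Few genes had a region as strong in reach. A pooled region of at least this signal lay in or up to 6 kb upstream of 0.0651% of all protein-coding genes. The peak was named for description with its strength already known, so this share describes it and tests nothing. The pooled list ran down to a signal of 12.9, with a median of 19.4, and the optimal list had a median of 66.2. The 5 regions above it, named after their values were seen, were 3 upstream of the nearest starts, those of tos-1, rpn-3 and hsp-1, and 2 in introns, with Y41G9A.17 and Y111B2A.12 as the nearest starts.

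The peak sat between genes, and xol-1 had the nearest start of a protein-coding gene. On the other side the nearest gene was C34D10.1, whose end lay 4829 bp from the summit. Between the peak and xol-1 the annotation has 3 genes, the non-coding RNA gene C18A11.13 and a pair of tRNA genes, and no protein-coding gene. The nearest tRNA gene was 242 bp from the summit.

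A second, weaker region stood next to the first. It covered chrX:8036482-8036680, with its summit 4668 bp upstream of xol-1 and 202 bp from the summit of the distal peak, and the regions overlapped by 20 bp. Its signal was 49.3 in the pooled list (rank 332), 32.6 in replicate 1 (rank 210) and 18.5 in replicate 2 (rank 2268). It was found in both replicates but was not in the optimal list, which ended at a signal of 52.7. Its summit lay 40 bp from a tRNA gene, and whether that neighbour has a part in its signal was not tested.

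The other 5 regions of xol-1 were nearer the general level of the list. At 1765 bp upstream the pooled signal was 30.2, with 12.4 in replicate 1 and 13.1 in replicate 2. At 2679 bp upstream it was 24.9, with 9.28 in replicate 1 and 18.3 in replicate 2. There the replicate 1 summit lay 164 bp from the pooled summit, outside the pooled region. The pooled region closest to the start, 522 bp upstream, had 16.8, with 12.7 in replicate 1 and no overlapping region in replicate 2. Replicate 2 had a region nearer still, 167 bp upstream, of 13.8 (rank 7363), that overlapped no pooled region. The remaining 2 pooled regions lay in the gene, in an intron (16.6) and in the 3′ UTR (14.8), and replicate 1 had neither. The start of C18A11.4 was the nearest to the region in the 3′ UTR. So the signal at xol-1 was concentrated at the far end of the upstream stretch, and no region near the start came close to it.

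**Figure D1:**
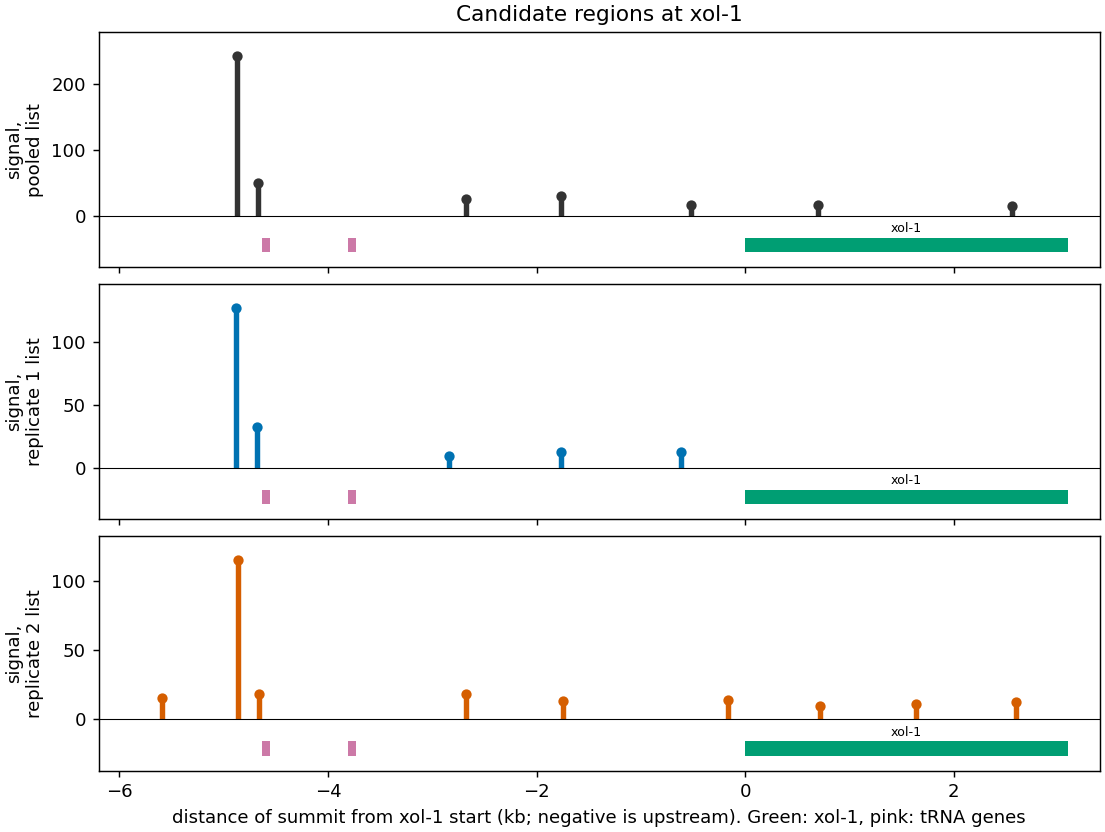
Signal of each region (vertical axis, the authors' value, scale not stated) against the distance of its summit from the start of xol-1 in kb, in the pooled, replicate 1 and replicate 2 lists. The tallest line, 4870 bp upstream, is the distal peak with 243 in the pooled list, 127 in replicate 1 and 115 in replicate 2.

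The gene her-1 encodes a secreted protein that promotes male development and is silenced by the SDC proteins in hermaphrodites. It had 3 pooled regions and no optimal peak. The strongest, chrV:9695123-9695418, lay 1744 bp upstream with a signal of 22.3 (rank 10512), 17.2 in replicate 1 and 12.3 in replicate 2. The bases around its summit, 50 to each side, hold none of the words searched. Of all protein-coding genes, 41.5% had a pooled region as strong.
her-1 region: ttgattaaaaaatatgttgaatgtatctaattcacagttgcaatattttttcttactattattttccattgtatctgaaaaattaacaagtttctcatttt

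A region of signal 17.1 lay in a her-1 intron, 1701 bp downstream of the start and before the second annotated start, which follows the first by 3755 bp. It had 11.7 in replicate 1 and 14.4 in replicate 2, where the overlapping summit lay 204 bp away. The third region, of 13.6, lay in an intron of the upstream gene ZK287.7 and overlapped no region of either replicate. The her-1 intron holds 1 copy of GCGCAGGG, at chrV:9698991-9698998, and no pooled region covers it, with the nearest pooled summit 279 bp away. In replicate 2 the same region of 14.4 (rank 6414) covers the word, with its summit 75 bp from it. In replicate 1 the nearest summit was 190 bp away, in a region of 8.68 that does not cover the word. No list had a summit within 50 bp of the her-1 copy.

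Of the sdc genes, only sdc-1 had a region in the pooled list. SDC-2 is the protein that directs the complex to the X, and sdc-2 had no region in any list. The nearest pooled summit was 4356 bp from the gene, beyond its end. SDC-3 is a zinc finger protein that acts with it, and sdc-3 had 2 regions in replicate 1 alone, of 12.1 and 10.7, against a median of 11.9 in that list. The nearest pooled summit to sdc-3 was 16767 bp away.

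The gene sdc-1, which encodes another zinc finger protein of the complex, had 4 pooled regions, all upstream. The strongest had 27.5 (rank 5051), 9.96 in replicate 1 and 17.7 in replicate 2. It lay 5222 bp upstream of sdc-1 but 472 bp upstream of ifa-3, an intermediate filament gene, in an intron of the non-coding gene W10G6.5. The region nearest to the start of sdc-1 was 643 bp upstream and had 21.7, with 12.3 in replicate 1 and none in replicate 2. Its summit sequence is given as the only region beside an sdc promoter in the pooled list, and none of the words searched is in it.
sdc-1 region: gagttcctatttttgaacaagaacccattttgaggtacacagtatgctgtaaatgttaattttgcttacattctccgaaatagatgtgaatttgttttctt

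DPY-21 is the subunit that demethylates a lysine of histone H4. The gene dpy-21 had 11 pooled regions, 6 of them upstream, and no optimal peak. The strongest, chrV:17950676-17950971, had 37.8 (rank 1086), 26.3 in replicate 1 (rank 557) and 14.6 in replicate 2 (rank 6116). It lay 1631 bp upstream of dpy-21 and 1125 bp upstream of Y59A8B.24, which had the nearer start. Its replicates differed more in rank than those of the xol-1 peak. The overlapping summit of replicate 2 lay 164 bp from the pooled summit, outside the pooled region. The bases around the pooled summit are rich in A and T, with a GC content of 19.8%.
dpy-21 region: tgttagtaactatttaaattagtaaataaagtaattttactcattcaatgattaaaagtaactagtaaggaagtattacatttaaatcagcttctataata

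A pooled region next to it, of 22.9, overlapped the same region of replicate 1, so the pair shares 1 source there. The other dpy-21 regions had pooled signals from 13.8 to 27.1, among them 27.1 in an intron of the neighbouring gene gck-3, with Y59A8B.24 as the nearest start, and 23.9 in an intron of dpy-21 8685 bp downstream of its start. Of all protein-coding genes, 8.41% had a pooled region at least as strong as 37.8.

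Among the condensin subunits of the complex, dpy-26 and dpy-27 had no region in any list. DPY-27 is its own SMC subunit and DPY-26 its kleisin. The nearest pooled summit was 8024 bp from dpy-26 and 12859 bp from dpy-27. The mix-1 gene, which encodes the SMC subunit shared with the mitotic condensins, had 2 pooled regions near its end. The stronger had 25.6 (rank 6614), 14.4 in replicate 1 and 23 in replicate 2 (rank 789). It lay in a coding exon 15950 bp downstream of the start and was the only pooled member region in coding sequence. The nearest start was that of M106.8, at 3431 bp, as it was for the weaker region of 19.5. Replicate 2 also had a mix-1 region of 22.6 (rank 851), 13817 bp downstream of the start, that overlapped no pooled region.

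The gene dpy-28, for a HEAT repeat subunit, had 14 pooled regions, the most of the 10 genes, and the only optimal peak besides that of xol-1. The peak, chrIII:10759138-10759433, had a signal of 71 (rank 109), 39.7 in replicate 1 (rank 104) and 30.1 in replicate 2 (rank 225). Its summit lay 3845 bp upstream of dpy-28, but only 21 bp upstream of tasp-1, a gene for a homolog of the human protease taspase. The whole of tasp-1 stands between the peak and dpy-28, on the same strand, so the peak is a tasp-1 promoter peak by position. The end of tasp-1 lies only 110 bp upstream of dpy-28, and whether the peak acts on either gene was not tested. The stretch from 50 bp before the summit to the start of tasp-1 is given with its overlapping GAGAG words in capitals.
dpy-28 upstream peak: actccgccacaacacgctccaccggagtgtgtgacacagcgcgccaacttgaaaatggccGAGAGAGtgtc

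That stretch runs over chrIII:10759236-10759306 and has a GC content of 59.2%, against 35.7% over chromosome III. Within dpy-28, the strongest region was in an intron 424 bp downstream of the start, with 33.2 (rank 2091). It had 28.5 in replicate 1 (rank 390) and 8.82 in replicate 2 (rank 21506), so it rested mostly on replicate 1. The overlapping summit of replicate 2 lay 193 bp from the pooled summit, outside the pooled region. Toward the end of the gene, introns held regions of 27.9, 26.7 and 25.4. The nearest start to these 3 was that of ptr-19, not of dpy-28. A pooled region of 71 or more was in reach of 1% of all protein-coding genes.

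**Figure D2:**
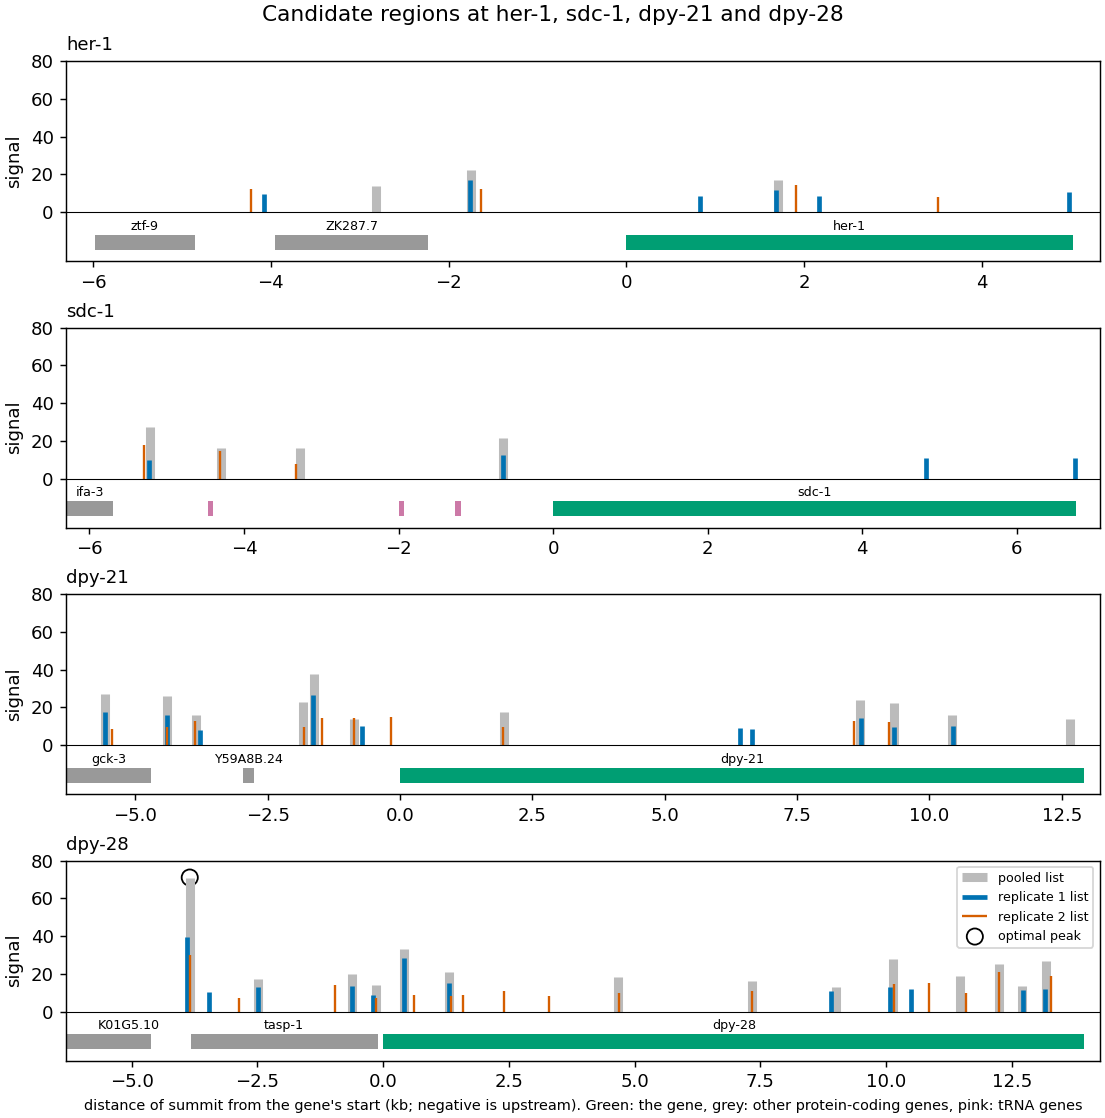
Signal of each region against the distance of its summit from the gene's start in kb, at her-1, sdc-1, dpy-21 and dpy-28, with wide grey lines for the pooled list and narrow lines for the replicates. The circled optimal peak of dpy-28, with 71 in the pooled list, sits at the start of tasp-1, and the next highest, at dpy-21, has 37.8.

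The 10 genes had candidate regions at a share near that of all genes. A pooled region was found at 6 of 10, against 59.8% of all protein-coding genes. The share was 7 of 10 in replicate 1, against 66.6%, and 6 of 10 in replicate 2, against 66.1%. Regions fell in their windows at 0.272 per kb, against 0.299 per kb over the nuclear genome and 0.362 per kb over the X. The windows were long, with a median of 13916 bp against 8027 bp over all genes.

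The optimal list gave 2 of the 10 genes, xol-1 and dpy-28, against 2.35% of all protein-coding genes. On the X it was 1 of 3, against 2.38% of X genes, and on autosomes 1 of 7, against 2.35% of autosomal genes. Regions of the first 1000 nuclear ranks lay at the same 2 genes, against 7.74% of all genes. With 10 genes named for their function, and with results for xol-1 known when they were listed, these counts carry no test.

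**Figure D3:**
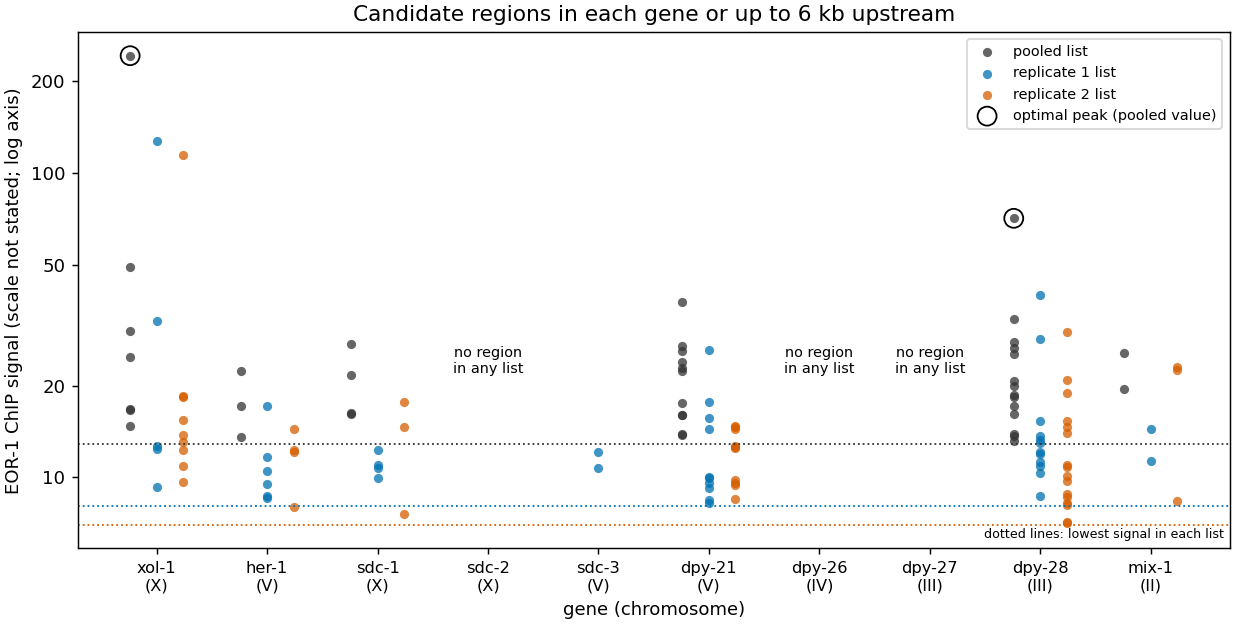
Signal (log axis) of every pooled, replicate 1 and replicate 2 region of each of the 10 genes, 1 point per region, with circles around optimal peaks and dotted lines at the lowest signal of each list. In the pooled list, only the circled points of xol-1 (243) and dpy-28 (71) pass the lowest optimal signal of 52.7, and sdc-2, dpy-26 and dpy-27 have no region.

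Over the genes with a pooled region, the median of the highest signal was 32.7 in the 6 members and 26.5 in 11935 genes. The windows of these 6 members ran from 9097 bp at xol-1 to 23179 bp at mix-1. Each was longer than the median of 8027 bp over all genes, and a longer window can hold more regions. The strength of the xol-1 peak was also known when the genes were listed. Whether member genes had stronger regions than other genes with windows of like length was not tested. Of the 41 member regions, 19 were below the median of the pooled list, and the median member region had 20. By place, 23 lay in introns, 14 between genes, 3 in 3′ UTRs and 1 in a coding exon. The member gene had the nearest protein-coding start for 21 of them, and a neighbour had it for the other 20. Many of these regions were therefore closer to a neighbour's start than to that of the gene they were counted for.

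Member regions were found in both replicates at a share near that of the whole list. Of the 41, 22 overlapped a region of both replicates, against 49.3% of all pooled regions. A further 8 overlapped a region of replicate 1 only, 9 of replicate 2 only, and 2 of neither. Overlap meant 1 bp or more.

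**Figure D4:**
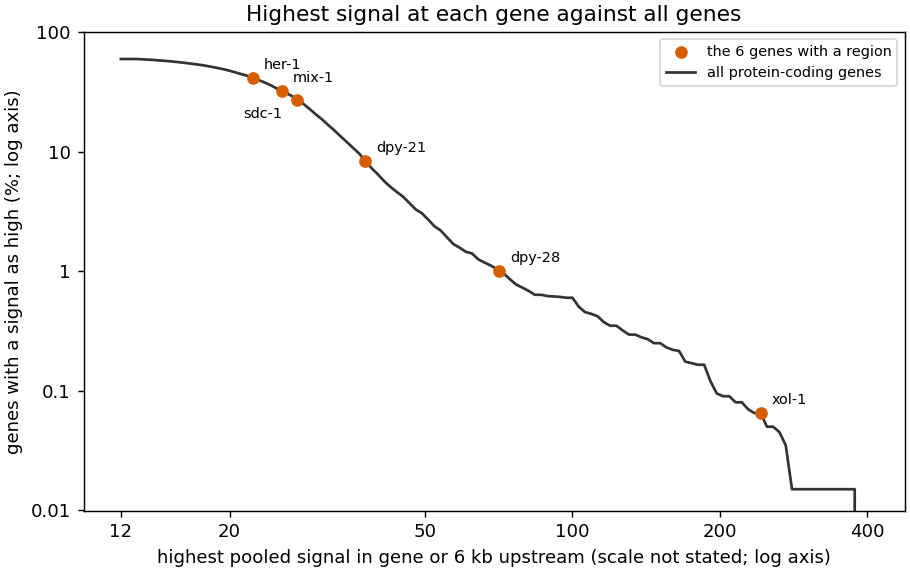
Share of all 19973 protein-coding genes (percent, log axis) with a pooled region at least as strong as a given signal in the gene or 6 kb upstream, with the 6 member genes marked. The share is 0.0651% at xol-1, 1% at dpy-28, 8.41% at dpy-21, 27.3% at sdc-1, 32.1% at mix-1 and 41.5% at her-1. The strength of the xol-1 peak was known when the genes were listed, so its share is description only.

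Words were searched on both strands within 50 bp of each summit. The EOR-1 motif, taken as GAGACGCAG or AGACGCAGA, was at 0 of the 41 member summits, against 0.38% of all pooled summits. GAGAG was at 5, among them the peak upstream of dpy-28, against 7.03% of all pooled summits. CGCAG, which the EOR-1 motif and GCGCAGGG both contain, was at 1, the xol-1 peak, against 2.78%. A match describes letters near a summit and nothing more.

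GCGCAGGG was at 1 of the 41 summits, that of the distal xol-1 peak, against 0.0434% of all pooled summits. The word was at 11 of 6423 summits on the X (0.171%) and at 2 of 23547 on autosomes (0.00849%). All 11 X regions were in the optimal list, with signals from 69.2 to 262 and ranks from 4 to 115. The autosomal regions had signals of 14.3 and 14.4 and were not in it. The distal xol-1 peak thus belonged to a small class of strong X regions. Of the X regions with the word, 2 have 2 copies, and the xol-1 peak is one of them.

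The 20 bases around each of the 13 copies at X summits are given below, each on the strand of the word, to show how the copies of the xol-1 peak compare with the rest. Names give the nuclear rank of the region in the pooled list, and capitals mark the word. In 10 of the 13 copies, both of the xol-1 copies among them, the word is preceded by tc. In 10 it is followed by a.
rank 4, intron of Y41G9A.17: tttatcGCGCAGGGaggaag
rank 6, xol-1 first copy: tttatcGCGCAGGGacgtat
rank 6, xol-1 second copy: tccatcGCGCAGGGaaccct
rank 8: ccattcGCGCAGGGacacct
rank 10: cctatcGCGCAGGGacagat
rank 21: tcattcGCGCAGGGcagctg
rank 22, first copy: catttgGCGCAGGGggtcac
rank 22, second copy: ggtatcGCGCAGGGaagatt
rank 24: tttatcGCGCAGGGatattg
rank 28: attatcGCGCAGGGgtgttt
rank 32: gctatcGCGCAGGGacacct
rank 66: caataaGCGCAGGGaggtgg
rank 115: aattaaGCGCAGGGatatat

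Most X regions with the word were among the strongest nuclear regions. Among the first 50 nuclear regions, 9 of 20 on the X (45%) had it at the summit and 0 of 30 on autosomes. Among ranks 51 to 256 it was at 2 of 47 on the X and 0 of 159 on autosomes. The EOR-1 motif was at 1 of 20 on the X (5%) and 8 of 30 on autosomes (26.7%) in the first 50, and not at the xol-1 peak. The X region at rank 28, chrX:806549-806844, was the only one with both.

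**Figure D5:**
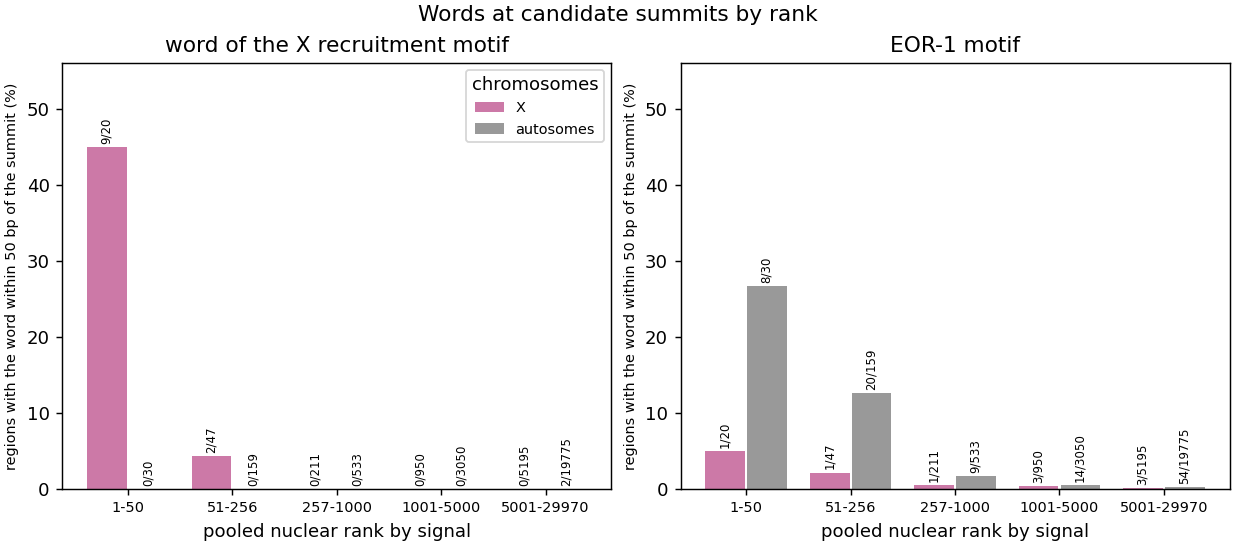
Share of nuclear pooled summits (percent) with the word of the X recruitment motif, left, and with the EOR-1 motif, right, by bin of pooled rank, for the X and for autosomes. In ranks 1 to 50, which include the xol-1 peak, the word of the X motif is at 45% of X summits, and the EOR-1 motif is at 26.7% of autosomal summits.

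The other genes of the pathway were taken from a list of 28, of which 27 were found in the annotation. A pooled region lay at 16 of them, against the 59.8% of all genes given above, and at 11 there was none. A region of the first 1000 ranks lay at 5, against 7.74% of all genes, and 1 of these, at fem-2, was an optimal peak.

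The counts by class below stand beside the 59.8% of all genes with a pooled region. The X signal elements, which count the X by acting on xol-1, had a region at 1 of 3, fox-1. Its pooled signal was 25 (rank 7280). Among autosomal elements 1 of 2 had regions, sea-2, with 36.7 at the highest. The windows of fox-1 and sea-2 were long, 20777 bp and 27764 bp, against a median of 8027 bp over all genes. Of the other condensin and dosage compensation subunits, 1 of 6 had a region, dpy-30, with 28.2. Of the genes for H4 lysine methylation, set-4, which adds the methylation that DPY-21 removes, had 46.7 at rank 408 and set-1 had none. The set-4 region lay 3378 bp upstream of set-4 but 732 bp upstream of ttc-39B, which had the nearest start.

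Below her-1 in the pathway, 10 of 11 genes had a pooled region, against 59.8% of all genes, and 4 of 11 had one of the first 1000 ranks, against 7.74%. Most of their windows were longer than the median of 8027 bp over all genes, from 7357 bp at fog-3 to 30312 bp at tra-1. A longer window can hold more regions. The strongest region was at fem-2, a phosphatase gene, with 56.8 at rank 195. It had 14.6 in replicate 1 (rank 8457) and 37.3 in replicate 2 (rank 121), and its summit was nearer to the start of tag-266 (266 bp). The receptor gene tra-2 had 46 at rank 437, in a non-coding exon where C15F1.14, mir-1831 and sup-39 overlap, and the nearest protein-coding start was that of eif-2Bgamma (889 bp). The RNA helicase gene laf-1 had 41.4, in an intron of cox-6B and 12 bp upstream of Y71H2AM.6. The zinc finger gene tra-4 had 39.2, in an exon of the non-coding gene F53B3.8, and its own start was the nearest (1059 bp). Of these 4 regions, only that of tra-4 was thus nearest to the gene it was counted for. None of them came near the 243 of the xol-1 peak. Of the targets of the terminal regulator tra-1, 2 of 3 had a region, with 19 at mab-3 and 17.4 at dmd-3.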

How the data were processed

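The deposited region lists of build ce11 were used, the pooled, optimal and 2 replicate lists. Lists of the older build were not used, because no coordinates were converted. Per the deposited notes, the authors called regions against a control, in each replicate and in the pooled alignments, and kept the optimal list by the irreproducible discovery rate. Aligner, caller and threshold: not given in the sources used here. The deposited signal is the authors' value per region, on an unstated scale. The deposited −log10 of the q-value was 2.5 at both optimal member peaks. At the other pooled member regions it was lower, with 1.15 at the second xol-1 region as the highest. At the strongest pooled regions of dpy-21, sdc-1, mix-1 and her-1 it was 0.48, 0.29, 0.27 and 0.24. The labels give fragments of 150 to 350 bp.

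Ranks are by signal among nuclear regions, since 29 of 285 optimal regions were mitochondrial. The optimal list equalled pooled ranks 1 to 256. Genes came from Ensembl release 115 and sequence from the RefSeq genome. Python 3.11.15, numpy 2.4.6, pandas 2.3.3 and matplotlib 3.10.9 were used, and the code was checked on simulated lists.

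Named by rule were the 10 genes, the gene with the nearest start to each region described by position, genes between the distal peak and xol-1, wider-list genes with a region of the first 1000 ranks, X regions outside promoters ranked at or above the xol-1 peak, and optimal X peaks with GCGCAGGG. Other names, such as fox-1, sea-2, dpy-30, set-1, mab-3 and dmd-3, were chosen after their values were seen. The members and lists were chosen with earlier results of these data known. The alternatives were 1, 2 and 10 kb windows, other overlap and word windows, and each replicate alone. There was no test, since 1 group of 2 replicates gives no contrast.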

Additional observations from a re-analysis of the deposited data

How the results depend on the processing

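The count of genes with an optimal peak was 2 with 6 kb upstream, 0 with 1 kb and 0 with 2 kb, and 1, xol-1, when the window ended at the nearest protein-coding gene. The 41 regions became 25 with 1 kb. With each replicate left out in turn the xol-1 peak ranked from 6 to 7. The count of regions with GAGAG was 5 within 50 bp of the summit, 3 within 25 bp and 9 over the whole region. The 22 regions found in both replicates became 10 when summits had to lie within 100 bp. In the remaining 28 alternatives counts stayed within 1.5 times the reported value: the 41 regions became 29 with 2 kb, 33 when the window ended at the nearest protein-coding gene and 46 with 10 kb, the 22 became 16 when the overlap had to be 50% of the region, and the genes with a candidate region were 7 in replicate 1 alone. No paired analysis was possible because there was 1 group and no test. Since read depth is unknown, a signal has no error, and low regions cannot be told apart from background.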

Other observations

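Copies of GCGCAGGG in the whole genome were counted with their flanks, a split chosen after the copies of the xol-1 peak were seen. On the X, 19 copies are preceded by tc, and 10 of these (52.6%) were within 50 bp of an optimal summit, the xol-1 copies included. Of the other 62 X copies, 3 were (4.84%). The xol-1 copies fall among the 10 by that choice of split, so the shares describe the copies and test nothing. On autosomes there were 6 copies preceded by tc and 227 others, and 0 of either were at an optimal summit. The longer word ATCGCGCAGGGA has 10 copies on the X, 7 at optimal summits, and 1 on autosomes, at none. It was defined as the stretch that the xol-1 copies share, so 2 of those 7 are the xol-1 copies by construction. What separates copies with a peak from those without was not tested.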
